A study of Mus musculus with 18 samples.

Results

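Genes of DNA replication and of mitosis were followed across sorted cell populations of mouse muscle and of hedgehog-driven tumors. The list held 40 genes, 16 of replication and 24 of mitosis. A member was measured by the probe set whose only listed gene symbol was that of the member, and 38 of the 40 members had one, among 22180 genes measured in all. Ccnb1 and Ccne2 had none and are not analysed here. Rrm2 had 2 such probe sets, of which the one with the higher mean over the 18 arrays was used. All 38 measured members, 15 of replication and 23 of mitosis, passed the filter on dim genes, and 35 of them lay over its limit on all 18 arrays. The exceptions were Bub1b, Melk and Kif11, each under it on 1 array of Tomato+ muscle cells.

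The cells came from digested tissue and were sorted by flow cytometry, 1 array per sorted sample. Every mouse carried aP2-Cre, in which Cre recombinase is driven by the promoter of Fabp4, a fat cell gene, and a tdTomato reporter, so Tomato+ cells had Cre activity at some time in their history and need not be of 1 cell type. Tumors came from mice of the genotype aP2-Cre/+;tdTomato/+/;SmoM2/+ on the strain BJ;SJL;B6.129, where SmoM2 is an active form of the hedgehog transducer Smoothened. They gave Tomato+/Pecam1+, Tomato+/Pecam1- and Tomato-/Pecam1- cells (Pecam1 is a surface protein of endothelial cells), 4 arrays each, with repeats 1 to 3 at postnatal day 48 and repeat 4 at day 38. Normal sternocleidomastoid muscle, a muscle of the neck, came from aP2-Cre/+;tdTomato/+ mice without SmoM2 on the strain B6;SJL at postnatal day 21 (1 Tomato+ sample is labelled aP2-Cre/+;tdTomato) and gave Tomato+ and Tomato- cells, 3 arrays each. Pecam1 was not part of the muscle gate. The labels call the samples biological repeats and do not say whether animals were pooled or whether samples with the same repeat number came from 1 animal, so p-values measure the spread between these samples only. Age, strain, genotype and tissue cannot be told apart in any comparison of tumor with muscle.

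Cells that divide copy their DNA in S phase and part the copies in mitosis. Before replication the loading factor Cdc6 helps to place the ring of Mcm2 to Mcm7 on DNA, cyclin E with its kinase starts S phase, and Cdc45 and the GINS complex turn the ring into an active helicase that Pcna and the polymerases follow, while ribonucleotide reductase, thymidylate synthase and thymidine kinase supply nucleotides. In mitosis cyclin A and cyclin B bound to Cdk1, with the Aurora and Polo kinases, build the spindle, the Bub kinases delay its action until chromosomes are attached, and Cdc20 with Ube2c directs the destruction of the cyclins. The mitotic genes peak later in the cycle than the replication genes, and both are low in resting cells. In these sorted bulk samples fewer cycling cells and less of each RNA per cycling cell cannot be told apart.

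Levels below are log2 intensities as deposited, and differences are log2, with a standard error (SE) from limma's fit over all 18 arrays and a p-value adjusted by the Benjamini-Hochberg method over the 16011 genes tested. A gene passed the test at an adjusted p of 0.05. Tumor and muscle arrays share the variance of this fit, so SEs and p-values may be too small where muscle arrays vary more. Where tumor is set against muscle, each array's median was subtracted, because the medians were 5.41 to 5.44 in tumor and 5.04 to 5.10 in muscle, and such values are called centred. Values of a gene are listed in the order of the repeat numbers. The sorting was visible in the marker genes: the centred mean of 10 endothelial genes was 5.12 to 5.80 in Tomato+/Pecam1+ tumor cells and 5.42 to 5.63 in Tomato+ muscle cells, against 0.50 to 1.27 in both Pecam1- tumor populations and 1.88 to 2.27 in Tomato- muscle cells. Of 7 salivary gland genes measured, Pip, Amy1 and Dcpp1 were highest in muscle repeat 1. Pip, a salivary protein, read 8.03, 6.49 and 4.01 in Tomato+ muscle cells and 11.57, 6.26 and 4.22 in Tomato- muscle cells, where tumor arrays read 3.20 to 3.64. Muc19, Prol1, Bhlha15 and Aqp5 did not follow this pattern (Prol1 read 2.49 to 2.88 in muscle and 2.84 to 3.24 in tumor). Results on muscle are therefore also given without muscle repeats 1 and 2 or, for tumor against Tomato- muscle cells, without Tomato- muscle repeat 1. Leaving out repeats 1 and 2 keeps only repeat 3. Repeat 3 was the highest Tomato- muscle array for 22 of 23 mitosis and 14 of 15 replication members. It was the highest Tomato+ muscle array for 21 and 13 of them. In tumor all 4 repeat numbers had the same average of their 3 populations at every probe set (within 7.67e-05), so differences in level between repeats are not in the deposited values, and a repeat that is high in 1 population is low in another.

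Most mitosis members were highest in normal muscle and not in tumor. Of the 23 mitosis members, 18 had their highest centred mean in Tomato- muscle cells, 4 in Tomato+/Pecam1- tumor cells, 1 in Tomato-/Pecam1- tumor cells and 0 in the other populations. Tomato+ muscle cells held the lowest mean for 22 of them, and Bub1b lay near the array median there (centred -0.63, 0.17 and 0.38). The replication members were less uniform: 8 of 15 were highest in Tomato- muscle cells, 5 in Tomato-/Pecam1- tumor cells, 1 in Tomato+/Pecam1- and 1 in Tomato+/Pecam1+ tumor cells. Their lowest mean lay in Tomato+ muscle cells for 7, in Tomato+/Pecam1+ tumor cells for 5, in Tomato+/Pecam1- tumor cells for 2 and in Tomato-/Pecam1- tumor cells for 1. These counts depend on the centring, and the share of all genes was not taken. On deposited means Aurkb and Cdc20 were higher in Tomato+/Pecam1- tumor than in Tomato- muscle cells (7.29 against 7.01 and 7.14 against 7.11). Tpx2 was level there (7.35). Rrm1 was then highest in Tomato-/Pecam1- tumor cells (8.23) and Mcm6 in Tomato+/Pecam1+ tumor cells (8.05).

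Averaged over the 23 mitosis members, the centred level was 1.31 ± 0.24 in Tomato+/Pecam1+ tumor cells, 1.86 ± 0.23 in Tomato+/Pecam1- tumor cells, 1.70 ± 0.02 in Tomato-/Pecam1- tumor cells (SD, n = 4 each), 0.89 ± 0.48 in Tomato+ muscle cells and 2.38 ± 0.32 in Tomato- muscle cells (SD, n = 3 each). Averaged over the 15 replication members it was 1.58 ± 0.20, 1.73 ± 0.15 and 1.86 ± 0.07 in the same tumor populations, and 1.59 ± 0.25 and 2.16 ± 0.28 in Tomato+ and Tomato- muscle cells. The array averages of the mitosis members thus ran lowest in Tomato+ muscle cells (0.37, 1.01 and 1.31), with Tomato+/Pecam1+ tumor cells (1.10 to 1.62) overlapping them, and highest in Tomato- muscle cells (2.17, 2.21 and 2.75), which overlapped no other population. Among the replication averages every neighbouring pair of populations overlapped but the top one, where the lowest Tomato- muscle array (1.92) lay just over the highest Tomato-/Pecam1- tumor array (1.91). Repeat 1 was the lowest Tomato+ muscle array for 19 of the 23 mitosis members, and repeat 3 was the highest Tomato- muscle array for 22. Repeat 3 was also the highest Tomato+ muscle array for 21.

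**Figure D1:**
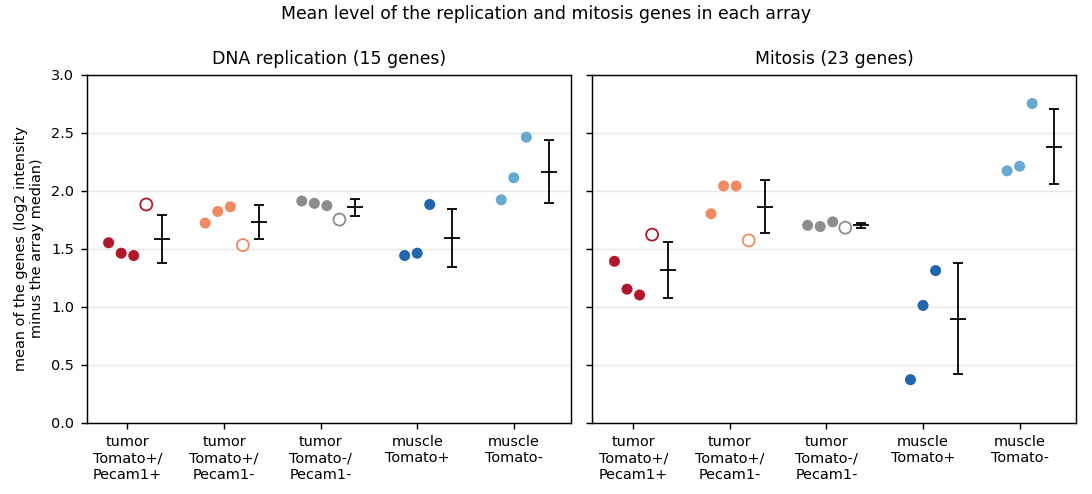
Mean over the 15 replication genes (left) and the 23 mitosis genes (right) on each array, as log2 intensity minus the array median, by sorted population. Filled points are arrays in the order of the repeat numbers, open points are tumor repeat 4 (day 38), and bars are the mean and SD. Mitosis genes read 0.37 to 1.31 in Tomato+ muscle cells and 2.17 to 2.75 in Tomato- muscle cells.

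**Figure D2:**
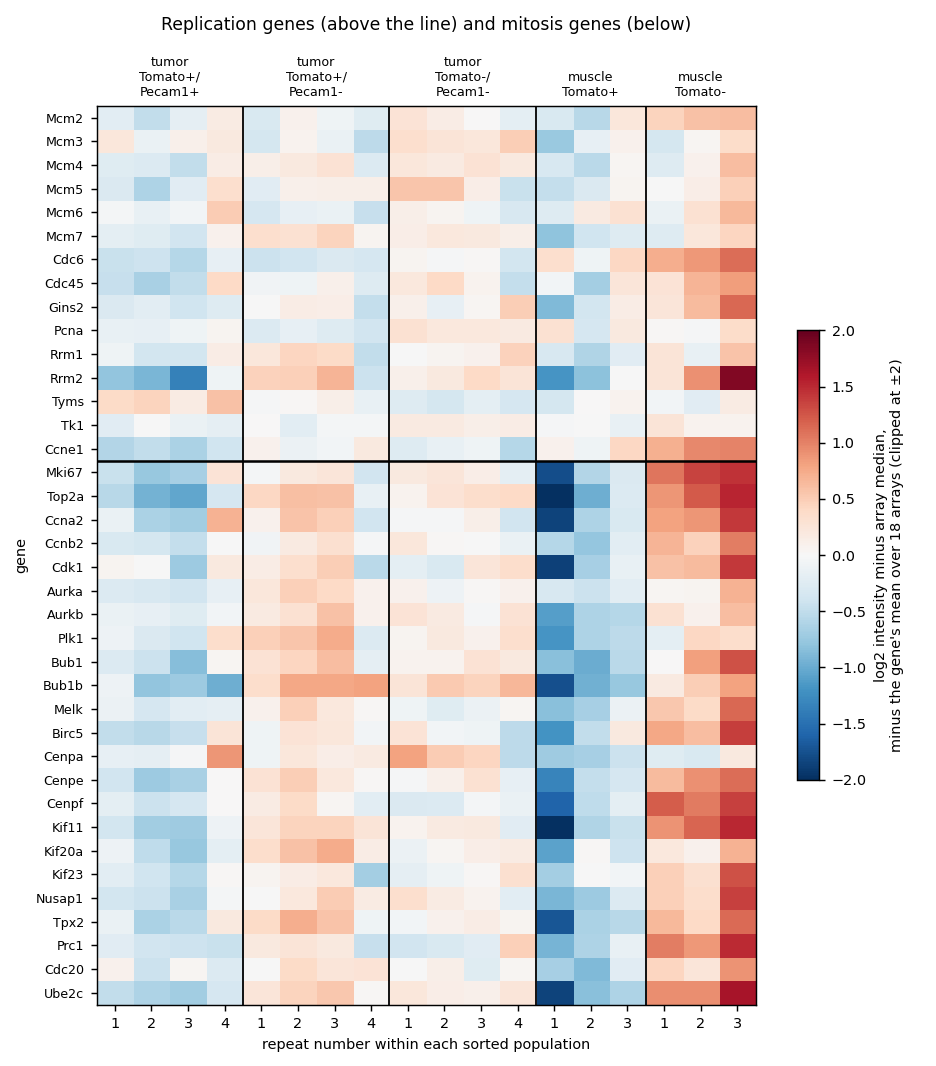
Log2 intensity minus the array median of each of the 38 genes (rows) on each of the 18 arrays (columns, by population and repeat number), with the mean of each gene over the arrays subtracted and the colours clipped at 2. Red is above and blue below the mean of the gene. Of the 23 mitosis genes, 21 are blue on every Tomato+ muscle array (not Birc5 and Kif20a), and 21 are red on every Tomato- muscle array (not Cenpa and Plk1).

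In normal muscle the comparison asked how the Cre-marked cells differ from the unmarked ones. Nearly all mitosis members were lower in Tomato+ than in Tomato- muscle cells: 22 of 23 fell, 0 rose, and the median difference was -1.5. Of all genes tested, 20.5% fell (39.7% passed in either direction), with a median difference of 0.00. Of the 15 replication members 8 fell and 0 rose, with a median of -0.62, and all 15 estimates were below 0. The values of the groups did not overlap for any of the 23 mitosis members, and for 9 of the 15 replication members, all lower in Tomato+ cells, as was so for 25.2% of all genes tested. Within every repeat number all 23 mitosis members were lower in Tomato+ cells, with median differences of -1.93, -1.26 and -1.57 in repeats 1, 2 and 3. The share of all genes lower within every repeat was not taken, so this count describes the members only.

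Ube2c, the ubiquitin-conjugating enzyme that serves the anaphase-promoting complex, read 6.01, 7.02 and 7.19 in Tomato+ muscle cells, against 8.79, 8.80 and 9.48 in Tomato- muscle cells. Its level fell by 2.28 (0.24 SE, adjusted p = 6.76e-07), the smallest p among the members. Cenpf, a protein of the kinetochore, read 4.81, 5.88 and 6.16 in Tomato+ muscle cells, against 7.61, 7.46 and 7.73 in Tomato- muscle cells, and fell by 1.98 (0.24 SE, adjusted p = 3.25e-06). Cyclin B2, encoded by Ccnb2, activates Cdk1 at the entry into mitosis. Ccnb2 read 7.14, 6.93 and 7.44 in Tomato+ muscle cells, against 8.39, 8.18 and 8.69 in Tomato- muscle cells, and fell by 1.25 (adjusted p = 7.1e-06). These 3 genes were lower on every Tomato+ array than on any Tomato- array. Kif11, the kinesin that pushes the spindle poles apart, read 4.45, 6.08 and 6.20 in Tomato+ muscle cells, against 7.60, 7.87 and 8.17 in Tomato- muscle cells, and had with Top2a the lowest estimate (-2.31, 0.32 SE, adjusted p = 1.49e-05). Repeat 1 of the Tomato+ cells stood far below its fellows there. Top2a, the topoisomerase that untangles sister DNA, read 5.44, 6.47 and 7.13 in Tomato+ muscle cells, against 8.33, 8.69 and 8.93 in Tomato- muscle cells (-2.31, adjusted p = 1.23e-05).

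Mki67, which coats mitotic chromosomes and encodes the antigen used to stain cycling cells, read 6.26, 7.42 and 7.68 in Tomato+ muscle cells, against 9.08, 9.38 and 9.43 in Tomato- muscle cells, and fell by 2.18 (0.30 SE, adjusted p = 1.58e-05), so Tomato- cells read 4.53-fold higher. Cdk1, the mitotic kinase, read 5.12, 6.29 and 6.78 in Tomato+ muscle cells, against 7.55, 7.63 and 8.35 in Tomato- muscle cells, and fell by 1.78 (adjusted p = 0.000755). Both groups were spread, but the highest Tomato+ array stayed under the lowest Tomato- array. The checkpoint kinases Bub1 and Bub1b fell by 1.5 and 1.66, the chromosomal passenger proteins Aurkb and Birc5 by 1.11 and 1.43, and the spindle pole kinase Aurka by 0.60. Central spindle proteins also fell: Prc1, which bundles its microtubules, by 1.71, and the kinesins Kif23 and Kif20a by 0.94 and 0.83. Spindle assembly factors Tpx2 and Nusap1 fell by 1.70 and 1.38, the kinetochore motor Cenpe by 1.61, the kinase genes Melk and Plk1 by 1.23 and 0.97, Ccna2 (cyclin A) by 1.97 and the activator Cdc20 by 1.12. The exception was Cenpa, the histone variant that marks centromeres. Cenpa read 6.11, 6.15 and 6.34 in Tomato+ muscle cells, against 6.57, 6.53 and 6.97 in Tomato- muscle cells, a difference of -0.49 with a 95% interval of -1.10 to 0.12 that did not pass (adjusted p = 0.203). Kif20a lost its call without Tomato+ repeat 1 or Tomato- repeat 3 (adjusted p = 0.0537 to 0.0605), and Kif23 without Tomato- repeat 3 (adjusted p = 0.0523).

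Among the replication members Ccne1 had the smallest p. Ccne1, a cyclin E gene, read 5.71, 5.53 and 5.98 in Tomato+ muscle cells, against 6.33, 6.60 and 6.57 in Tomato- muscle cells, and fell by 0.76 (0.14 SE, adjusted p = 0.000268). The helicase loader gene Cdc6 read 5.61, 5.17 and 5.62 in Tomato+ muscle cells, against 5.98, 6.14 and 6.35 in Tomato- muscle cells, and fell by 0.69 (adjusted p = 0.000923). Rrm2, the small subunit of ribonucleotide reductase whose supply is tied to S phase, had the lowest estimate of the group. It read 5.79, 6.14 and 6.90 in Tomato+ muscle cells, against 7.22, 7.89 and 8.79 in Tomato- muscle cells, and fell by 1.69 (0.38 SE, adjusted p = 0.00156). Its other probe set read 5.17, 5.58 and 5.72 against 6.10, 6.65 and 6.92. Mcm2, a helicase subunit, read 6.07, 5.81 and 6.56 in Tomato+ muscle cells, against 6.81, 6.97 and 6.96 in Tomato- muscle cells, and fell by 0.77 (adjusted p = 0.00275). Gins2 and Mcm7 fell by 1.05 and 0.63. Cdc45 and Rrm1 fell by 0.77 and 0.62 (adjusted p = 0.0311 and 0.0373), and lost the call once repeat numbers entered as a block (adjusted p = 0.0709 and 0.0723). Leaving out 1 array also ended them, for Cdc45 in 3 of 6 cases (repeat 2 of either population or Tomato- repeat 3, adjusted p = 0.084 to 0.171) and for Rrm1 in 5 of 6 (all but Tomato- repeat 2, adjusted p = 0.0518 to 0.164).

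The remaining 7 replication members, Mcm3, Mcm4, Mcm5, Mcm6, Pcna, Tyms and Tk1, did not pass. Pcna, the sliding clamp, also serves DNA repair and read 10.36, 9.69 and 10.18 in Tomato+ muscle cells, against 10.06, 10.03 and 10.37 in Tomato- muscle cells (-0.08, 95% interval -0.37 to 0.22, adjusted p = 0.707). Tyms, thymidylate synthase, read 6.38, 6.71 and 6.74 in Tomato+ muscle cells, against 6.66, 6.51 and 6.85 in Tomato- muscle cells, the difference nearest 0 (-0.06, 95% interval -0.32 to 0.20, adjusted p = 0.746). In both genes the groups overlapped. Of 74 other mitosis genes tested 58 fell and 0 rose (median -1.02), among them Lmnb1, a lamin of the nuclear envelope, at -1.39 (adjusted p = 2.96e-07), and Anln, a scaffold of the cleavage ring, at -2.32 (adjusted p = 3.29e-07). Of 54 other replication genes 22 fell and 4 rose (median -0.33). Uhrf1, which maintains DNA methylation, stood at -1.30 (adjusted p = 1.1e-05), and Pola2, a subunit of the priming polymerase, stood at 1.54 (adjusted p = 1.92e-07) against the direction of its group.

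Without muscle repeats 1 and 2, which leaves 1 array per muscle population, assumed to vary like the other groups, 21 of the 22 mitosis genes and 4 of the 8 replication genes kept their calls, and no other member passed. The genes that lost them were Plk1, Ccne1, Cdc45, Mcm2 and Rrm1. Without the Tomato- repeat 1, the array with the most Pip, the counts were 22 and 8. Marker genes of other cell types moved with the contrast: in Tomato+ muscle cells 7 of 7 fibro-adipogenic, 7 of 7 myogenic progenitor, 7 of 8 myocyte, 5 of 6 pericyte and smooth muscle, 4 of 4 Schwann, 6 of 8 leukocyte, 3 of 8 macrophage, 4 of 5 neutrophil and 4 of 5 mast cell genes tested fell, and 10 of 10 endothelial genes rose. The centred mean of the leukocyte genes was 0.42 to 0.97 in Tomato+ and 1.80 to 2.03 in Tomato- muscle cells, and that of the myogenic progenitor genes 0.36 to 0.59 and 3.12 to 3.51. The part of these cell types in the result was not tested.

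Promoter sequences are shown here because the mitosis members moved together in muscle while the replication members did so less. Mitotic genes are known for a short element, the cell cycle genes homology region (CHR), that together with CCAAT boxes is bound by repressor and activator complexes, and replication genes for sites of the E2F factors. RefSeq windows (build GRCm38.p6) of 300 bases, 250 before to 50 after the start of a gene, were found for 33 of the 40 members by symbol, Ccnb1 among them. Not found were Mcm4, Gins2, Ccne2, Ccna2, Aurkb, Kif20a and Tpx2. The CHR letters TTTGAA, on either strand, stood in the windows of 14 of 20 mitosis members (70%) and 2 of 13 replication members (15.4%), against 17.9% of 32851 windows of all genes. CCAAT, on either strand, stood in 17 of 20 and 9 of 13, against 37.4% of all windows, and each of those 14 mitosis members held both. An E2F motif, any of TTTCCCGC, TTTCGCGC, TTTGCCGC and TTTGGCGC on either strand, stood in 1 of 20 mitosis members, Cdk1, and in 5 of 13 replication members, Cdc6, Mcm3, Mcm5, Mcm6 and Mcm7, against 2.26% of all windows. A gene with several windows counts if any of them holds the match. Of the 14 mitosis members with both, all but Cenpa fell in Tomato+ muscle cells. Birc5, Bub1, Cenpe, Melk and Nusap1 fell there too, without a CHR match. Among replication members Cdc45 and Mcm2 fell with both motifs, and Ccne1, Cdc6, Mcm7, Rrm1 and Rrm2 fell with no CHR match. Whether the motifs go with the muscle differences was not tested. CCAAT matches on opposite strands can share bases, and so can E2F matches.

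Of the 14 mitosis members with both, Ube2c, Top2a, Kif11 and Cenpf are printed as those that differed most in muscle or had the smallest p, and Cdk1 as the one that also held an E2F match. Mcm5 and Cdc6 stand for the replication members with E2F matches, and Tyms for those with none of the 3 motifs. Capitals mark CHR, CCAAT and E2F matches on either strand (CCAAT appears as ATTGG and TTTGAA as TTCAAA on the opposite strand), and all run 5′ to 3′ along the gene. They lie at chr2:164769679-164769978 (plus strand), chr11:99024140-99024439 (minus), chr19:37376132-37376431 (plus), chr1:189688037-189688336 (minus), chr10:69352863-69353162 (minus), chr8:75109259-75109558 (plus), chr11:98907901-98908200 (plus) and chr5:30073576-30073875 (minus).
Ube2c: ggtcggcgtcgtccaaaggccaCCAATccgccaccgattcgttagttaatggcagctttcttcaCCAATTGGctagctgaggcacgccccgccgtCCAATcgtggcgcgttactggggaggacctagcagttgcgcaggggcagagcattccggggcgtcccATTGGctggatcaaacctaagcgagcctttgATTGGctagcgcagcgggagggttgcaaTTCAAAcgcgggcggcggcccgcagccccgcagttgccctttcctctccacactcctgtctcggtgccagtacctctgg
Top2a: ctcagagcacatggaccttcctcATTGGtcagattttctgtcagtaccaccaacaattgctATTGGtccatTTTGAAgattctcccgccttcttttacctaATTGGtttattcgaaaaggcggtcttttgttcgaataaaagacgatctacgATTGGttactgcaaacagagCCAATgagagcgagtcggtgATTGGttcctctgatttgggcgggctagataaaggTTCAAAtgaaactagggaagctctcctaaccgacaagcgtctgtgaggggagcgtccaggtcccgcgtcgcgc
Kif11: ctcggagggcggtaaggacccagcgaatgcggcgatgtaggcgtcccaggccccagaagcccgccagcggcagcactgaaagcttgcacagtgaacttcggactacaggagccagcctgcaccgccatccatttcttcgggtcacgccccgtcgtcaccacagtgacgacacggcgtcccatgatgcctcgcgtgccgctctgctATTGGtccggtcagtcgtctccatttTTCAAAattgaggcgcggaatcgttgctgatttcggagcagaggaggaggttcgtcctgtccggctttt
Cenpf: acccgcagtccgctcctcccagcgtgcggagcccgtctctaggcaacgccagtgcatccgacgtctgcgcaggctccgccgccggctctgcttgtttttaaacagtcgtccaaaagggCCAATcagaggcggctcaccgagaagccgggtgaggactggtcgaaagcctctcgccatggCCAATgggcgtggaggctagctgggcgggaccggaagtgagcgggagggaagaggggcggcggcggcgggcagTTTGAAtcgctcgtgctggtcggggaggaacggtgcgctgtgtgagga
Cdk1: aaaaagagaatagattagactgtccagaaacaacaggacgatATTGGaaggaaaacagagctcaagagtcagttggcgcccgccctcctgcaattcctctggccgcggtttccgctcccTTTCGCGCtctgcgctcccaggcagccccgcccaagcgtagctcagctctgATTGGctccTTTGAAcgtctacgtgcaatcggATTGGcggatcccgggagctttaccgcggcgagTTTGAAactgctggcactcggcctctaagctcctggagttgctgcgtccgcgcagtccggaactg
Mcm5: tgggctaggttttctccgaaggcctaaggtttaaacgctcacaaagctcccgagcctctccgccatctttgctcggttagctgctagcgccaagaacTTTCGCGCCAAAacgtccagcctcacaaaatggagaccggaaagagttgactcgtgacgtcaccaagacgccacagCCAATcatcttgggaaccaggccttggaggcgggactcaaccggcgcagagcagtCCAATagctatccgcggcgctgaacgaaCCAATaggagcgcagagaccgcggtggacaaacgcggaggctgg
Cdc6: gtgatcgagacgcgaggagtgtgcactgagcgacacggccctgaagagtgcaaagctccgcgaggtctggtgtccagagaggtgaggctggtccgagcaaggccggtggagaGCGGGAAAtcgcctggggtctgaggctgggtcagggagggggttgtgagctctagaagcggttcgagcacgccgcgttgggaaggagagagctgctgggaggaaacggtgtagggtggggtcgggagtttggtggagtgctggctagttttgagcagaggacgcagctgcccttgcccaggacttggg
Tyms: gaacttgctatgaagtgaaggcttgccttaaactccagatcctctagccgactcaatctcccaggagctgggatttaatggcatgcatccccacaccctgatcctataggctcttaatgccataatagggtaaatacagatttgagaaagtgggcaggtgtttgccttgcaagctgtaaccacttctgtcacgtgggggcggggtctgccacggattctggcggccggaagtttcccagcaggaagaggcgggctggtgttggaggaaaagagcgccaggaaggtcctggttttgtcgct
A match is a description of letters and not of a bound site, and the windows without one may hold other forms of these elements.

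Among the Pecam1- tumor cells the marked and unmarked populations were set against each other. No mitosis member passed in either direction: 0 of 23 rose and 0 fell by limma at an adjusted p of 0.05 (1 of 23 at an unadjusted p under 0.05, higher), while 25.4% of all genes tested passed, and 20 of the 23 estimates were above 0 with a median of 0.19 (0.03 over all genes). The 95% intervals of the 23 differences reached from -0.72 to 0.94, so changes within these bounds are not excluded. Of the 15 replication members 3 fell, Pcna, Mcm3 and Tk1, and 0 rose, with a median of -0.17, against 12.0% of all genes that fell. Pcna read 10.09, 10.19, 10.11 and 9.99 in Tomato+/Pecam1- tumor cells, against 10.68, 10.57, 10.58 and 10.54 in Tomato-/Pecam1- tumor cells, and fell by 0.50 (0.12 SE, adjusted p = 0.00577). Mcm3, another helicase subunit, read 6.90, 7.34, 7.13 and 6.75 in Tomato+/Pecam1- tumor cells, against 7.62, 7.52, 7.48 and 7.75 in Tomato-/Pecam1- tumor cells, and fell by 0.56 (adjusted p = 0.0228). Thymidine kinase, Tk1, read 7.27, 7.06, 7.23 and 7.23 in Tomato+/Pecam1- tumor cells, against 7.46, 7.45, 7.39 and 7.42 in Tomato-/Pecam1- tumor cells, and fell by 0.23 (adjusted p = 0.0454). The groups did not overlap in these 3 genes. Nor did they in Tyms and Kif11, which were higher in Tomato+/Pecam1- cells and did not pass. The share of all genes without overlap was taken only for the muscle contrast. Here and below, overlap describes the named genes only. Tk1 lost the call once repeat numbers entered as a block (adjusted p = 0.127) and without any 1 of the 8 arrays (adjusted p = 0.0579 to 0.143). Mcm3 lost it without repeat 1 or 4 of either population (adjusted p = 0.0548 to 0.0745). The count was 1 without repeat 1 of either population or repeat 4 of the Tomato+/Pecam1- cells.

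For Mki67, Top2a and Cdk1, which had wide differences in muscle, the estimates here were small and their intervals lay on both sides of 0. Mki67 read 8.31, 8.54, 8.59 and 7.97 in Tomato+/Pecam1- tumor cells, against 8.55, 8.60, 8.48 and 8.15 in Tomato-/Pecam1- tumor cells (-0.09, 95% interval -0.65 to 0.46, adjusted p = 0.842). Top2a read 8.18, 8.38, 8.37 and 7.63 in Tomato+/Pecam1- tumor cells, against 7.87, 8.05, 8.14 and 8.17 in Tomato-/Pecam1- tumor cells (0.08, 95% interval -0.49 to 0.66). In both genes repeat 4 was the lowest Tomato+/Pecam1- array, and the groups overlapped. Cdk1 read 7.44, 7.63, 7.79 and 6.76 in Tomato+/Pecam1- tumor cells, against 7.12, 6.99, 7.54 and 7.64 in Tomato-/Pecam1- tumor cells (0.08, adjusted p = 0.889). The smallest p among the mitosis members was that of the spindle pole kinase Aurka (0.27, 95% interval 0.01 to 0.53, adjusted p = 0.127). Aurka read 6.78, 7.03, 6.95 and 6.66 in Tomato+/Pecam1- tumor cells, against 6.66, 6.44, 6.58 and 6.64 in Tomato-/Pecam1- tumor cells. Kif20a, a kinesin of cytokinesis, had the highest estimate. It read 6.63, 6.88, 7.02 and 6.44 in Tomato+/Pecam1- tumor cells, against 6.18, 6.33, 6.42 and 6.44 in Tomato-/Pecam1- tumor cells (0.40, 95% interval -0.03 to 0.83, adjusted p = 0.165). Melk, a kinase that peaks in mitosis, read 5.77, 6.15, 5.89 and 5.70 in Tomato+/Pecam1- tumor cells, against 5.61, 5.43, 5.56 and 5.71 in Tomato-/Pecam1- tumor cells (0.30, adjusted p = 0.189). Each of these 3 genes overlapped between the groups.

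Cenpa had the lowest mitosis estimate, with 7.05, 7.37, 7.28 and 7.32 in Tomato+/Pecam1- tumor cells, against 7.96, 7.64, 7.57 and 6.61 in Tomato-/Pecam1- tumor cells (-0.19, adjusted p = 0.637). Its repeat 4 was the lowest array of both groups, while the other 3 lay above every Tomato+ array. Of the replication genes that did not pass, Ccne1 had the highest estimate and read 6.03, 5.82, 5.90 and 6.14 in Tomato+/Pecam1- tumor cells, against 5.70, 5.80, 5.86 and 5.38 in Tomato-/Pecam1- tumor cells (0.29, adjusted p = 0.0922). Mcm2 read 6.40, 6.80, 6.63 and 6.47 in Tomato+/Pecam1- tumor cells, against 6.99, 6.86, 6.72 and 6.51 in Tomato-/Pecam1- tumor cells (-0.19, adjusted p = 0.419), with overlap. Rrm2 read 7.75, 7.76, 7.98 and 6.86 in Tomato+/Pecam1- tumor cells, against 7.39, 7.48, 7.69 and 7.55 in Tomato-/Pecam1- tumor cells (0.06, adjusted p = 0.924). Without tumor repeat 4, 2 mitosis members passed, Prc1 higher (0.51, adjusted p = 0.0334) and Cenpa lower (-0.49, adjusted p = 0.0171). Among other mitosis genes 7 rose and 3 fell of 74, including the phosphatase gene Cdc25b at 0.89 (adjusted p = 0.0024) and Lmnb1 at -0.66 (adjusted p = 0.000686). Among other replication genes 1 rose and 2 fell of 54, the nuclease gene Dna2 at -0.81 (adjusted p = 0.0193) and the clamp loader gene Rfc2 at -0.43 (adjusted p = 0.0272), and both lost the call with the block (adjusted p = 0.073 and 0.0917). Leukocyte genes moved with the contrast (0 of 8 rose and 8 fell, centred mean 1.66 to 2.09 in Tomato+/Pecam1- and 3.26 to 4.37 in Tomato-/Pecam1- tumor cells), and so did myogenic progenitor genes (6 of 7 rose, 3.17 to 3.65 and 1.43 to 2.67). All 8 macrophage, 5 neutrophil, 5 mast cell and 4 lymphocyte genes and 3 of 4 Schwann genes fell as well, and 5 of 8 myocyte genes rose. Their part in these levels was not tested.

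The Tomato contrast was tested for a difference between tumor and muscle with an interaction term. Of the 23 mitosis members 21 passed, all with a contrast higher in Pecam1- tumor cells than in muscle (median 1.62, against 0.01 over all genes, of which 20.9% passed in that direction and 39.5% in either), and the exceptions were Cenpa and Kif23. Of the 15 replication members 4 passed in the same direction, Mcm7, Gins2, Rrm2 and Ccne1, and 0 in the other (median 0.41). The contrast of Ube2c was 0.13 in tumor and -2.28 in muscle, a difference of 2.42 (0.32 SE, adjusted p = 1.21e-05). For Kif11 it was 0.29 in tumor and -2.31 in muscle, the widest gap (2.59, adjusted p = 0.000103). Cenpf differed by 2.26 (adjusted p = 2.28e-05), Melk by 1.53 (adjusted p = 6.94e-05), Mki67 by 2.09 (adjusted p = 0.000495), Rrm2 by 1.75 (adjusted p = 0.00997) and Ccne1 by 1.05 (adjusted p = 0.000208). Mcm7 differed by 0.74 (adjusted p = 0.0111). Gins2 (0.88, adjusted p = 0.0369) lost its call without any 1 of 10 of the 14 arrays (adjusted p = 0.0551 to 0.119). Pcna had the lowest estimate (-0.42, adjusted p = 0.0826). Cenpa stood at 0.30 (adjusted p = 0.581). The marked muscle cells were not gated on Pecam1 and had endothelial marker levels, and the tumor cells of this contrast were Pecam1-, so the populations differ in gate and cell type markers as well as in tissue. Among other mitosis genes 56 of 74 had a higher contrast in tumor and 1 a lower one, with Anln at 3.11 (adjusted p = 4.33e-07) and the condensin gene Ncapd2 at 1.46 (adjusted p = 7.99e-06). Among other replication genes 17 of 54 had a higher contrast and 3 a lower one, with Pola2 at -1.65 (adjusted p = 3.26e-06) and Timeless, which protects the replication fork, at -1.53 (adjusted p = 5.06e-05).

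**Figure D3:**
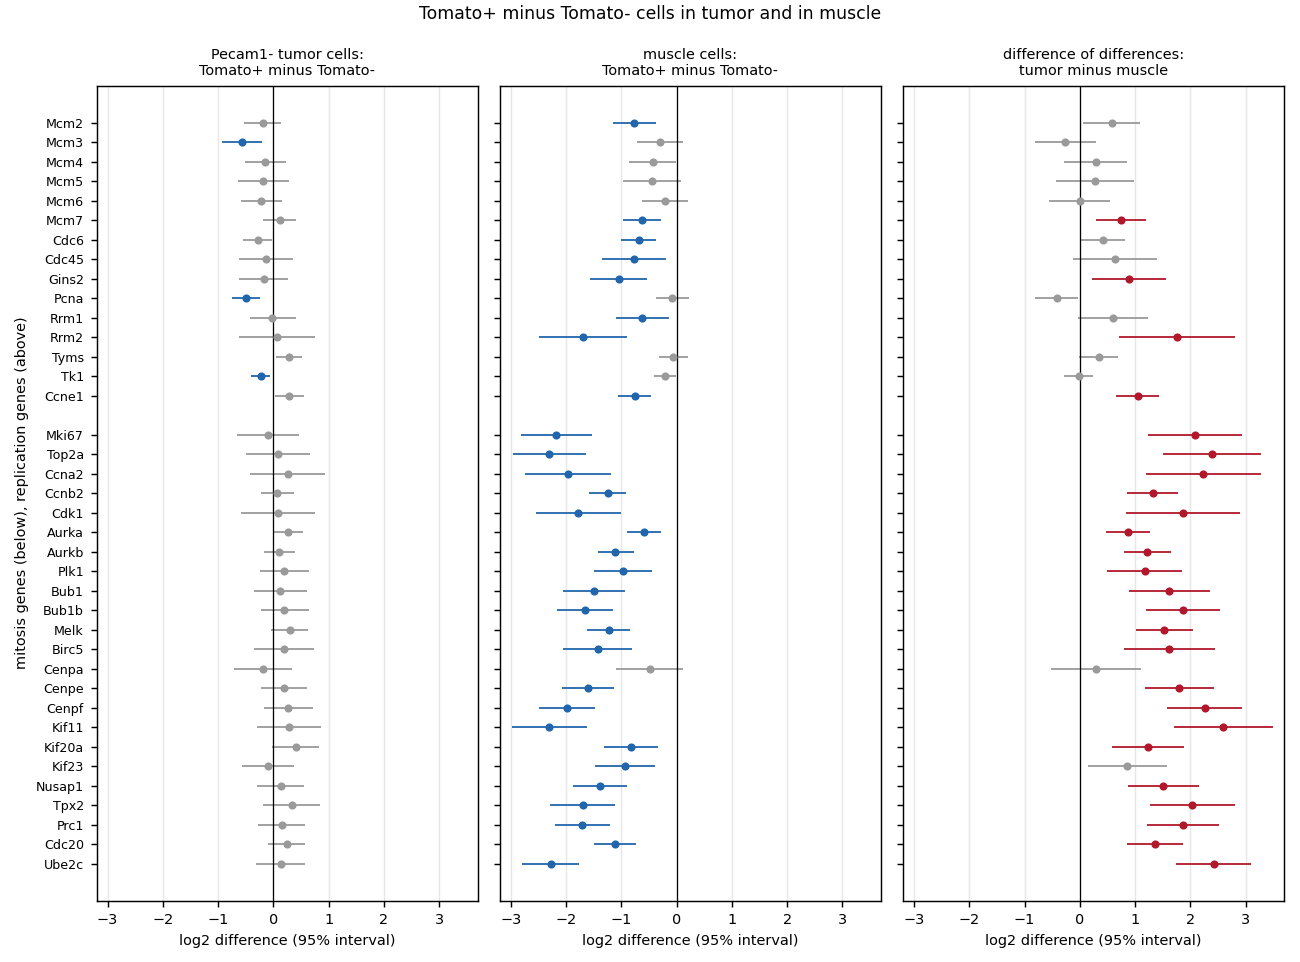
Log2 difference with 95% interval of each of the 38 genes for Tomato+ minus Tomato- cells among Pecam1- tumor cells (left) and in muscle (middle), and the difference of those differences (right). Red and blue genes passed an adjusted p of 0.05 upward and downward, and grey genes did not. In tumor 0 mitosis genes passed, in muscle 22 fell, and 21 passed the test of the difference.

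Within the tumor, Tomato+/Pecam1+ cells, whose marker genes were endothelial, were compared with Tomato+/Pecam1- cells. Of the 23 mitosis members 13 fell and 0 rose, with a median of -0.42, where 23.6% of all genes fell (44.6% passed either way, median 0.01). Of the 15 replication members 3 fell (Rrm2, Ccne1 and Mcm7) and 1, Tyms, rose, with a median of -0.21. Bub1b, the spindle checkpoint kinase, had the lowest estimate and the smallest p. It read 6.44, 5.77, 5.84 and 5.59 in Tomato+/Pecam1+ tumor cells, against 6.90, 7.32, 7.32 and 7.36 in Tomato+/Pecam1- tumor cells, and fell by 1.32 (0.21 SE, adjusted p = 4.56e-05). Aurka read 6.28, 6.24, 6.19 and 6.42 in Tomato+/Pecam1+ tumor cells, against 6.78, 7.03, 6.95 and 6.66 in Tomato+/Pecam1- tumor cells, and fell by 0.57 (adjusted p = 0.00118). Kif20a read 6.18, 5.79, 5.54 and 6.12 in Tomato+/Pecam1+ tumor cells, against 6.63, 6.88, 7.02 and 6.44 in Tomato+/Pecam1- tumor cells, and fell by 0.83 (adjusted p = 0.00263). In all 3 the highest Tomato+/Pecam1+ array lay under the lowest Tomato+/Pecam1- array. Top2a read 7.22, 6.84, 6.75 and 7.46 in Tomato+/Pecam1+ tumor cells and fell by 1.08 (adjusted p = 0.00381), and Ube2c read 7.68, 7.57, 7.50 and 7.88, against 8.42, 8.62, 8.72 and 8.21 in Tomato+/Pecam1- tumor cells, and fell by 0.83 (adjusted p = 0.00378). Cenpe, Kif11, Bub1, Nusap1, Aurkb, Tpx2, Melk and Ccnb2 also fell, by 0.38 to 0.81. Tpx2 lost the call once repeat numbers entered as a block (adjusted p = 0.0508). Melk lost it without any 1 of 7 of the 8 arrays (adjusted p = 0.0572 to 0.154), and Tpx2, Ccnb2, Bub1, Kif11, Nusap1 and Aurkb without 1 to 5 of them, mostly those of repeats 2 and 3 (adjusted p = 0.052 to 0.12). Mki67 read 7.89, 7.61, 7.69 and 8.64 in Tomato+/Pecam1+ tumor cells and did not pass (-0.40, 95% interval -0.95 to 0.16, adjusted p = 0.243), and neither did Cdk1, with 7.36, 7.30, 6.60 and 7.52 (-0.21, adjusted p = 0.623). Cenpa had the highest mitosis estimate and read 6.98, 6.97, 7.13 and 8.05 (0.03, adjusted p = 0.94).

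Tyms went the other way. It read 7.42, 7.50, 7.23 and 7.64 in Tomato+/Pecam1+ tumor cells, against 7.02, 7.07, 7.16 and 6.91 in Tomato+/Pecam1- and 6.80, 6.68, 6.86 and 6.70 in Tomato-/Pecam1- tumor cells. Every Tomato+/Pecam1+ array was above every other tumor array. Tyms was higher by 0.41 than in Tomato+/Pecam1- cells (adjusted p = 0.00501) and by 0.69 than in Tomato-/Pecam1- cells (0.11 SE, adjusted p = 5.36e-05). A pseudogene of Tyms shares another probe set with it, and whether its RNA reaches the probe set used here was not tested. Ccne1 read 5.36, 5.47, 5.33 and 5.57 in Tomato+/Pecam1+ tumor cells and fell by 0.54 against Tomato+/Pecam1- cells (adjusted p = 0.00141), with no overlap. Rrm2 read 6.50, 6.39, 5.96 and 7.23 in Tomato+/Pecam1+ tumor cells and fell by 1.07 (0.33 SE, adjusted p = 0.0133). Its repeat 4 was the highest Tomato+/Pecam1+ array and overlapped the lowest Tomato+/Pecam1- array, which was also repeat 4. Without Tomato+/Pecam1+ repeat 3 the call was lost (adjusted p = 0.051). Mcm2 read 6.50, 6.23, 6.54 and 6.90 (-0.03, adjusted p = 0.886) and Pcna 10.21, 10.22, 10.30 and 10.45 (0.20, adjusted p = 0.195) in Tomato+/Pecam1+ tumor cells, and neither passed.

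In Tomato+/Pecam1+ cells, against the Tomato-/Pecam1- tumor cells, 3 of 23 mitosis members fell, Bub1b, Top2a and Ube2c, and 0 rose, with a median of -0.31, where 21.2% of all genes fell (41.7% passed either way). Of the replication members Rrm2 and Tk1 fell and Tyms rose, with a median of -0.31. Bub1b, with 6.82, 7.07, 7.0 and 7.21 in Tomato-/Pecam1- tumor cells, fell by 1.12 in Tomato+/Pecam1+ cells (adjusted p = 0.000268), Top2a by 0.99 (adjusted p = 0.00705) and Ube2c by 0.70 (adjusted p = 0.0129). None of these 3 overlapped. Rrm2 fell by 1.01 (adjusted p = 0.0194, and 0.0695 without Tomato+/Pecam1+ repeat 3) and Tk1, at 7.05, 7.27, 7.15 and 7.12 in Tomato+/Pecam1+ tumor cells, by 0.28 (adjusted p = 0.00901). Cenpf, with 6.54, 6.32, 6.42 and 6.75 in Tomato+/Pecam1+ and 6.46, 6.46, 6.69 and 6.60 in Tomato-/Pecam1- tumor cells, had the mitosis estimate nearest 0 (-0.04, adjusted p = 0.888). Both comparisons use the same Tomato+/Pecam1+ arrays. In a fit of the compared populations alone 9 mitosis and 7 replication members passed.

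The contrasts within each repeat number are given because repeat 4 is of day 38. Within repeats 1, 2 and 3 the Tomato+/Pecam1+ cells were lower than the Tomato+/Pecam1- cells in 22, 23 and 23 of the 23 mitosis members, with median differences of -0.41, -0.82 and -0.90, and in repeat 4 in 10 of 23, with a median of 0.02. For the replication members the counts were 10, 11 and 11 of 15 in repeats 1 to 3 and 2 of 15 in repeat 4, with medians of -0.22, -0.35, -0.33 and 0.43. Against Tomato-/Pecam1- cells the mitosis medians within repeats 1 to 4 were -0.38, -0.54, -0.69 and -0.12. With 1 repeat at day 38, age cannot be told apart from that repeat, and the difference was not tested. Without repeat 4, 16 mitosis members fell against Tomato+/Pecam1- cells and 9 against Tomato-/Pecam1- cells, and 6 and 9 replication members, while Tyms kept its call against Tomato-/Pecam1- cells (0.60, adjusted p = 0.000835) and lost it against Tomato+/Pecam1- cells (0.30, adjusted p = 0.0585). Without 1 array, the 13 calls against Tomato+/Pecam1- cells became 6 to 8 when repeat 2 or 3 of either population was left out. Against Tomato-/Pecam1- cells 8 mitosis and 9 replication members passed without Tomato+/Pecam1+ repeat 4, and 5 and 6 without Tomato-/Pecam1- repeat 4. For the counts within repeats and with arrays left out, the share of all genes is not given here. They describe the members only. The leukocyte markers of Tomato+/Pecam1+ cells had a centred mean of 0.22 to 1.5, against 1.66 to 2.09 in Tomato+/Pecam1- and 3.26 to 4.37 in Tomato-/Pecam1- tumor cells. Other lists fell further against Tomato+/Pecam1- cells: 6 of 7 fibro-adipogenic genes (median -3.82), 8 of 8 myocyte genes (-3.76), 7 of 7 myogenic progenitor genes (-2.85), 6 of 6 pericyte and smooth muscle genes (-2.46) and 7 of 8 macrophage genes (-1.87), against 5 of 8 leukocyte genes (-1.20). Against Tomato-/Pecam1- cells the same lists fell in 7 of 7, 7 of 8, 6 of 7, 6 of 6, 8 of 8 and 8 of 8 genes, as did 5 of 5 neutrophil, 4 of 5 mast cell, 4 of 4 lymphocyte and 4 of 4 Schwann genes, while 10 of 10 endothelial genes rose in both comparisons. The part of these cell types in the result was not tested. Of 74 other mitosis genes 33 fell and 1 rose against Tomato+/Pecam1- cells (Fam83d, a spindle protein, at -2.12, adjusted p = 1.03e-05, and Ncapd2 at -0.81, adjusted p = 3.17e-05), and 15 fell and 0 rose against Tomato-/Pecam1- cells (Lmnb1 at -1.15, adjusted p = 4.77e-07, and Arhgap11a at -1.72, adjusted p = 4.29e-06). Of 54 other replication genes 15 fell and 5 rose, and 17 fell and 4 rose. Timeless (1.35 and 1.09) and Pola2 (0.94 and 0.82) were among those that rose in both (adjusted p = 1.14e-06, 1.59e-05, 1.05e-05 and 4.89e-05).

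**Figure D4:**
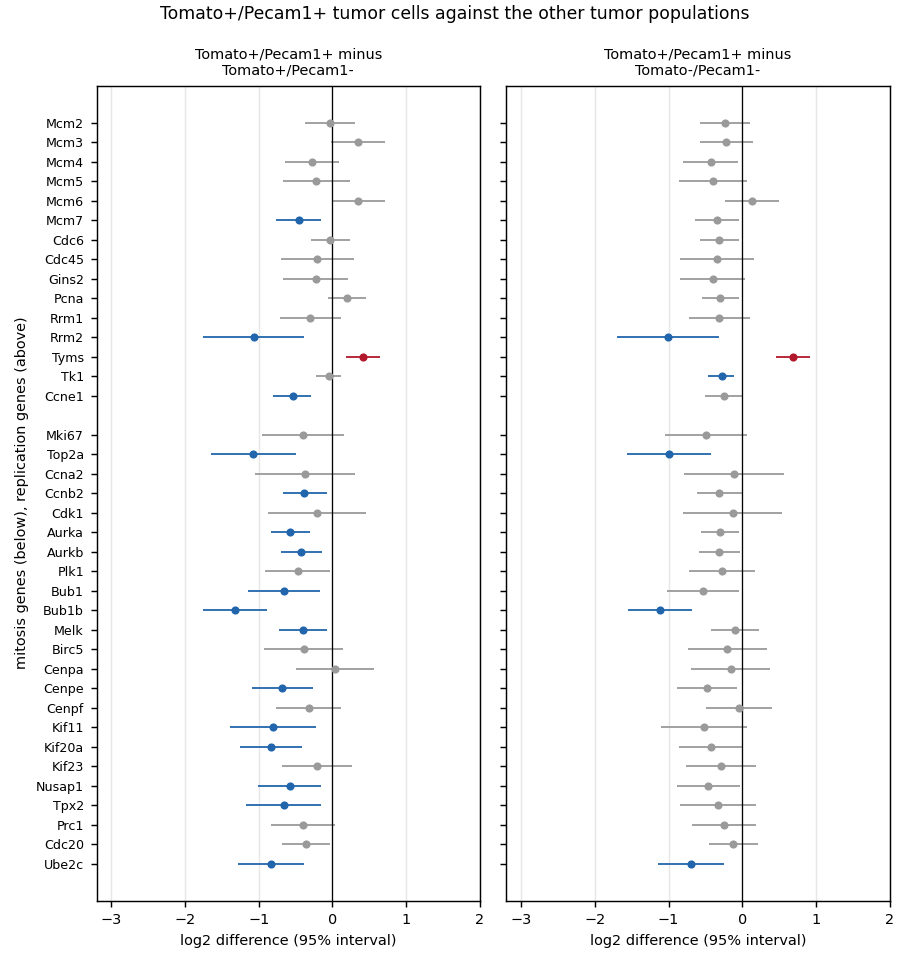
Log2 difference with 95% interval of each of the 38 genes for Tomato+/Pecam1+ tumor cells minus Tomato+/Pecam1- tumor cells (left) and minus Tomato-/Pecam1- tumor cells (right). Red and blue genes passed an adjusted p of 0.05 upward and downward, and grey genes did not. Mitosis genes lie mostly below 0, with 13 blue on the left and 3 on the right, and Tyms is red on both sides.

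Tumor and muscle populations were compared on centred values. Subtracting the medians changes these results: on the deposited values the median of all genes stood 0.32 to 0.34 higher in tumor, and it was -0.03 to 0.01 after centring. Against Tomato+ muscle cells the Tomato+/Pecam1+ tumor cells, both of endothelial marker level, had higher estimates for 22 of 23 mitosis members, with a median of 0.44, but only 3 passed, Aurkb, Plk1 and Cenpa, and 0 fell. Of all genes 15.7% rose (34.2% passed either way). On deposited values 20 mitosis members rose and 0 fell, the sign of 1 mitosis and 5 replication estimates turned, and over all genes the calls were then 90.5% upward, against 45.8% on centred values. Aurkb, the kinase of the chromosomal passenger complex, had centred levels of 1.46, 1.42, 1.35 and 1.53 in Tomato+/Pecam1+ tumor cells, against 0.49, 0.97 and 1.02 in Tomato+ muscle cells, and rose by 0.61 (0.15 SE, adjusted p = 0.00459). Plk1, the Polo kinase, had centred levels of 1.23, 1.04, 0.93 and 1.68 in Tomato+/Pecam1+ tumor cells, against 0.15, 0.71 and 0.81 in Tomato+ muscle cells, and rose by 0.66 (adjusted p = 0.0352, and 0.0595 with a block of repeat numbers). Cenpa had centred levels of 1.57, 1.54, 1.70 and 2.61 in Tomato+/Pecam1+ tumor cells, against 1.02, 1.06 and 1.30 in Tomato+ muscle cells, and rose by 0.73 (adjusted p = 0.0474, and 0.11 with the block). These 3 genes did not overlap between the groups. Plk1 lost its call without any 1 of 4 of the 7 arrays (adjusted p = 0.0513 to 0.179) and Cenpa without any 1 of 5 (adjusted p = 0.059 to 0.141). Cdk1 had the highest estimate and did not pass, with centred levels of 1.94, 1.87, 1.16 and 2.08 in Tomato+/Pecam1+ tumor cells, against 0.02, 1.21 and 1.74 in Tomato+ muscle cells (0.78, 95% interval 0.04 to 1.51, adjusted p = 0.0958). Kif23 had the lowest (-0.04, adjusted p = 0.927), Mki67 stood at 0.48 (adjusted p = 0.209) and Top2a at 0.37 (adjusted p = 0.373). The count changed with single arrays of Tomato+ muscle cells: it was 11 without their repeat 3, 1 without their repeat 1 and 0 without repeats 1 and 2, and 5 or 1 without tumor repeat 2 or 4 of the Tomato+/Pecam1+ cells. Of the marker lists, 4 of 6 pericyte and smooth muscle and 2 of 4 Schwann genes fell, 3 of 7 fibro-adipogenic and 1 of 10 endothelial genes rose, and their part in the result was not tested.

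The replication members split in the same comparison, with 1 higher and 2 lower of 15 and a median of 0.03 (5 higher and 0 lower on deposited values). Tyms had centred levels of 2.01, 2.07, 1.80 and 2.21 in Tomato+/Pecam1+ tumor cells, against 1.28, 1.63 and 1.70 in Tomato+ muscle cells, and rose by 0.48 (adjusted p = 0.00605). Both replication members that passed downward act before DNA synthesis begins. Mcm2 to Mcm7, Cdc45 and Gins2 also act before it and did not pass (-0.13 to 0.37). Ccne1 had centred levels of -0.06, 0.04, -0.10 and 0.14 in Tomato+/Pecam1+ tumor cells, against 0.61, 0.45 and 0.94 in Tomato+ muscle cells, and fell by 0.66 (adjusted p = 0.00116). Cdc6 had centred levels of -0.28, -0.25, -0.40 and 0.01 in Tomato+/Pecam1+ tumor cells, against 0.51, 0.09 and 0.58 in Tomato+ muscle cells, and fell by 0.62 (adjusted p = 0.00236). Both were lower on every tumor array than on any muscle array, and neither passed on deposited values. Mcm2 (0.04), Pcna (-0.13) and Rrm2 (-0.11) did not pass. Of 74 other mitosis genes 17 rose and 0 fell, among them Sgo1, a guard of sister cohesion, at 0.77 (adjusted p = 0.00058) and the separase gene Espl1 at 0.61 (adjusted p = 0.000774). Of 54 other replication genes 6 rose and 4 fell, with Dut, which removes dUTP, at 0.64 (adjusted p = 0.00195) and Pola2 at -0.92 (adjusted p = 0.000132).

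The unmarked populations were compared next. In Tomato-/Pecam1- tumor cells, against Tomato- muscle cells, 15 of 23 mitosis members fell and 0 rose, with a median of -0.69, where 24.9% of all genes fell (48.7% passed either way). On deposited values 7 fell, 1 rose, the sign of 5 mitosis and 2 replication estimates turned and the median was -0.36, with 83.5% of all calls upward instead of 48.8%. Cenpf had centred levels of 1.03, 1.04, 1.27 and 1.18 in Tomato-/Pecam1- tumor cells, against 2.52, 2.35 and 2.68 in Tomato- muscle cells, and fell by 1.39 (0.23 SE, adjusted p = 0.000123). Prc1 had centred levels of 1.49, 1.56, 1.65 and 2.35 in Tomato-/Pecam1- tumor cells, against 2.90, 2.74 and 3.37 in Tomato- muscle cells, and fell by 1.24 (adjusted p = 0.000271). Its tumor repeat 4 stood above the other 3 tumor arrays and still under every muscle array. Melk had centred levels of 0.18, 0.02, 0.14 and 0.30 in Tomato-/Pecam1- tumor cells, against 0.80, 0.64 and 1.41 in Tomato- muscle cells, and fell by 0.79 (adjusted p = 0.00161). Mki67 had centred levels of 3.12, 3.18, 3.06 and 2.74 in Tomato-/Pecam1- tumor cells, against 4.0, 4.28 and 4.38 in Tomato- muscle cells, and fell by 1.19 (adjusted p = 0.00273). Top2a fell by 0.93 (adjusted p = 0.0172), and Cdk1 stood at -0.86 without passing (adjusted p = 0.0509, and 0.0422 with a block). Kif23 and Tpx2 lost their calls with the block (adjusted p = 0.0519 and 0.0612), and without 4 and 6 of the 7 single arrays. Top2a lost it without Tomato- muscle repeat 3 (adjusted p = 0.0805). Cenpa had the highest estimate, 0.42, the only one above 0 (adjusted p = 0.213). Without Tomato-/Pecam1- repeat 4 it rose by 0.70 (adjusted p = 0.0182). Without Tomato- muscle repeat 3, the highest array of that group, 9 mitosis members fell.

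Of the 15 replication members Ccne1, Cdc6 and Mcm2 fell in Tomato-/Pecam1- tumor cells and 0 rose, with a median of -0.25 (2 fell and 4 rose on deposited values, median 0.09). Ccne1 had centred levels of 0.28, 0.38, 0.44 and -0.04 in Tomato-/Pecam1- tumor cells, against 1.24, 1.49 and 1.52 in Tomato- muscle cells, and fell by 1.15 (0.13 SE, adjusted p = 2.9e-06). Cdc6 had centred levels of 0.22, 0.14, 0.19 and -0.19 in Tomato-/Pecam1- tumor cells, against 0.89, 1.03 and 1.29 in Tomato- muscle cells, and fell by 0.98 (adjusted p = 2.09e-05). Both fell on deposited values too. Mcm2 had centred levels of 1.56, 1.44, 1.30 and 1.10 in Tomato-/Pecam1- tumor cells, against 1.73, 1.87 and 1.91 in Tomato- muscle cells, and fell by 0.48 (adjusted p = 0.0306, and 0.0586 with the block). Mcm2 also lost it without any 1 of 4 of the 7 arrays (adjusted p = 0.0583 to 0.0897). Mcm3 had the highest estimate, 0.31 (adjusted p = 0.196). Pcna (0.10) and Rrm2 (-0.78) did not pass. Without Tomato- muscle repeat 1, 15 mitosis and 6 replication members fell. Of the marker lists, 6 of 7 myogenic progenitor genes (median -1.32), 8 of 10 endothelial genes (-1.19), 4 of 4 Schwann genes (-1.0) and 3 of 6 pericyte and smooth muscle genes (-0.60) fell in Tomato-/Pecam1- tumor cells. All 8 leukocyte, 8 macrophage and 5 neutrophil genes and 4 of 5 mast cell genes rose. The part of these cell types in the result was not tested. Of other mitosis genes 31 fell and 3 rose of 74 (Kif20b at -1.36, adjusted p = 1.19e-05, and Ect2, which starts cleavage, at -1.34, adjusted p = 0.000154), and of other replication genes 6 fell and 6 rose of 54 (E2f1 at -0.67, adjusted p = 2.92e-05, and Gins3 at 0.92, adjusted p = 0.000286).

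The marked Pecam1- tumor cells were set against the Tomato- muscle cells. The list mean of the myogenic progenitor markers was alike in both (centred 3.17 to 3.65 and 3.12 to 3.51). Single genes of that list differed: of 7 tested, 2 were higher and 1 lower in tumor (median 0.1). In Tomato+/Pecam1- tumor cells 11 of 23 mitosis members fell and 0 rose, with a median of -0.62, where 23.0% of all genes fell (47.1% passed either way). Of the 15 replication members 7 fell and 0 rose, with a median of -0.39. On deposited values 3 mitosis members fell and 1 rose, and 2 replication members fell and 2 rose, the sign of 2 mitosis and 5 replication estimates turned, with 84.2% of all calls upward instead of 51.2%. Prc1 had centred levels of 2.06, 2.13, 2.07 and 1.41 in Tomato+/Pecam1- tumor cells, against 2.90, 2.74 and 3.37 in Tomato- muscle cells, and fell by 1.09 (adjusted p = 0.000889). Cenpf had centred levels of 1.48, 1.69, 1.36 and 1.11 in Tomato+/Pecam1- tumor cells and fell by 1.11 (adjusted p = 0.000909), and Mki67, with 2.90, 3.13, 3.17 and 2.55, fell by 1.28 (0.29 SE, adjusted p = 0.00165), so Tomato- muscle cells read 2.43-fold higher. In these 3 genes no Tomato+/Pecam1- tumor array reached the lowest muscle array. Top2a fell by 0.85 (adjusted p = 0.0294), Cdk1 stood at -0.77 (adjusted p = 0.078) and Cenpa had the highest estimate (0.23, adjusted p = 0.51). Cdc6 had centred levels of -0.26, -0.22, -0.12 and -0.16 in Tomato+/Pecam1- tumor cells, against 0.89, 1.03 and 1.29 in Tomato- muscle cells, and had the lowest estimate of the replication members (-1.26, 0.14 SE, adjusted p = 1.33e-06). Ccne1 had centred levels of 0.62, 0.41, 0.48 and 0.72 in Tomato+/Pecam1- tumor cells and fell by 0.86 (adjusted p = 5.92e-05), and Mcm2, with 0.99, 1.38, 1.21 and 1.05, fell by 0.68 (adjusted p = 0.00458). None of these 3 overlapped with muscle. Pcna fell by 0.39 (adjusted p = 0.0229) and Rrm2 did not pass (-0.71). Mcm7 had the highest estimate (0.15, adjusted p = 0.439), and Cdc45 lost its call with the block (adjusted p = 0.0735). Pcna and Top2a lost theirs without Tomato- muscle repeat 3 or Tomato+/Pecam1- repeat 4 (adjusted p up to 0.138 and 0.121), Top2a also without Tomato- muscle repeat 2. Without Tomato- muscle repeat 1, 12 mitosis and 8 replication members fell. Without Tomato- muscle repeat 3 the counts were 4 and 3, and without tumor repeat 4 of the Tomato+/Pecam1- cells 5 and 3. Of other mitosis genes 21 fell and 6 rose of 74 (Kif20b at -1.27, adjusted p = 2.45e-05, and Cdkn3, a phosphatase that acts on cell cycle kinases, at -1.30, adjusted p = 0.00038), and of other replication genes 9 fell and 3 rose of 54 (E2f1 at -0.84, adjusted p = 2.51e-06, and Gins3 at 1.01, adjusted p = 0.00013). Other marker lists differed in this comparison: 10 of 10 endothelial (median -1.11), 5 of 5 mast cell (-1.97), 4 of 5 neutrophil (-1.94), 3 of 4 Schwann (-2.03), 3 of 4 lymphocyte (-1.15), 3 of 7 fibro-adipogenic (-0.55) and 3 of 6 pericyte and smooth muscle genes (-0.54) fell in Tomato+/Pecam1- tumor cells, and 5 of 8 macrophage (0.96) and 4 of 8 myocyte genes (1.31) rose. Their part in the result was not tested. This comparison and the one before share the Tomato- muscle arrays.

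**Figure D5:**
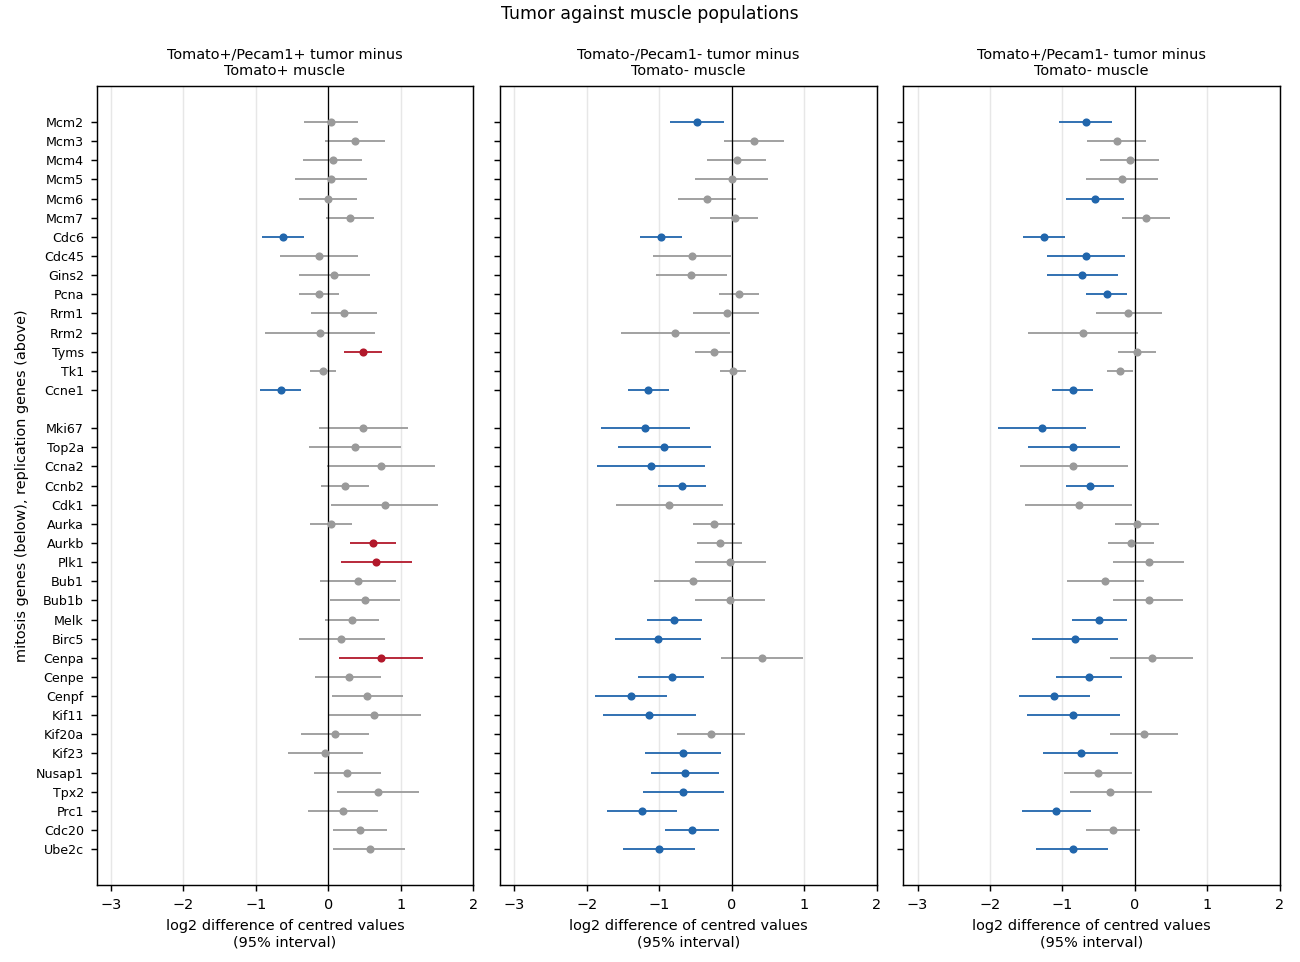
Log2 difference of centred values with 95% interval of each of the 38 genes for Tomato+/Pecam1+ tumor minus Tomato+ muscle cells (left), Tomato-/Pecam1- tumor minus Tomato- muscle cells (middle) and Tomato+/Pecam1- tumor minus Tomato- muscle cells (right). Red and blue genes passed an adjusted p of 0.05 upward and downward, and grey genes did not. Mitosis genes lie mostly above 0 on the left, where 3 passed, and mostly below 0 elsewhere, where 15 and 11 fell, and Ccne1 and Cdc6 are blue in all 3.

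Replication and mitosis members thus separated the populations unequally. The mean of the mitosis members minus that of the replication members on the same array was -0.27 ± 0.08 in Tomato+/Pecam1+, 0.13 ± 0.09 in Tomato+/Pecam1- and -0.16 ± 0.06 in Tomato-/Pecam1- tumor cells (SD, n = 4 each), and -0.70 ± 0.33 in Tomato+ and 0.21 ± 0.10 in Tomato- muscle cells (SD, n = 3 each). On single arrays it was 0.04 to 0.22 in Tomato+/Pecam1- tumor cells and 0.10 to 0.29 in Tomato- muscle cells. On every other array it was below 0 (-1.08 to -0.08). The populations above 0 had the highest means of the myogenic progenitor, the myocyte, and the pericyte and smooth muscle markers. Myocyte means overlapped by array (1.30 to 3.31 in Tomato- muscle against 1.87 to 2.62 in Tomato-/Pecam1- tumor cells), as did pericyte means. Other lists had another order. The fibro-adipogenic mean was 4.59 in Tomato+/Pecam1- and 4.99 in Tomato-/Pecam1- tumor cells. The leukocyte mean was highest in Tomato-/Pecam1- tumor cells (3.93). The part of these cell types was not tested. The mitosis and replication means are over different probe sets, so only the shift of their difference between populations can be read. Over the 5 population means, Ccnb2 (r = 0.992), Gins2 (r = 0.984) and Prc1 (r = 0.980) followed Mki67 most closely, and Kif23 (r = 0.986), Gins2 (r = 0.979) and Cdc45 (r = 0.978) followed Mcm2. Least like Mki67 were Tyms (r = -0.192), Pcna (r = 0.261) and Cenpa (r = 0.319), and least like Mcm2 were Tyms (r = -0.277), Cenpa (r = 0.113) and Mcm3 (r = 0.332). These are descriptions over 5 points that share arrays and scaling.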

How the data were processed

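RNA of 18 sorted samples was measured on a mouse expression array after cDNA amplification, per the labels' protocols. The authors deposited log2 intensities of 41345 probe sets, and the submitters' processing notes name RMA and Partek, with no role or version. Genes came from the platform's annotation: 23521 probe sets carry 1 symbol, 1814 several and 16010 none, and the probe set with the highest mean stood for each of 22180 genes. A gene was tested (16011 were, 6169 were not) when it lay over the 40th percentile of an array on at least 3 arrays. limma 3.58.1 in R 4.3.3 fitted 1 mean per population over 18 arrays with moderated variances (13 residual and 3.8 prior degrees of freedom), two-sided, with Benjamini-Hochberg adjustment and a threshold of 0.05, after a check on simulated data. Array medians were subtracted only where tumor meets muscle. Array number limits the precision.

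In muscle, samples of the same repeat number deviated together (correlations of deviations from the population means 0.27 to 0.31, against -0.19 to -0.09 for other numbers). This cannot show that they came from 1 animal. Deviations within a population sum to 0, which ties the 2 kinds of correlation, and salivary genes were high in repeat 1 of both populations. In tumor this check is void, since the means over the 3 populations are equal for all repeat numbers. The median range of such means over probe sets is 0.248 in muscle. Variation shared by a repeat is thus gone from the deposited tumor values, and p-values there tend to be too small. The fit takes 1 variance per gene from tumor and muscle arrays together, so p-values that involve muscle may be too small too. The median SD of mitosis members was 0.53 in Tomato+ and 0.33 in Tomato- muscle cells, against 0.15 to 0.3 in the tumor populations. Alternatives were a block of repeat numbers within tissue, quantile normalization, swapped centring, other filters, thresholds and variance models, averaged probe sets, a fit of the compared populations alone, and leaving out arrays, muscle repeats 1 and 2 or tumor repeat 4. Named members are 7 genes named throughout (Mcm2, Pcna, Rrm2, Ccne1, Mki67, Top2a and Cdk1), the 3 of each list with the smallest p, the highest and lowest estimates, members against their list's direction, and 2 other genes per list. Other names were chosen after their values were seen. The members and all lists were chosen with earlier results of these data known.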

Additional observations from a re-analysis of the deposited data

Results flagged for a closer look

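Among 114 sets of 4 tumor arrays, 1 per member and population, 7 held an array that stood apart from the other 3 (gap over range above 0.829), and chance flags about 1 in 20 such sets. In Tomato+/Pecam1+ tumor cells it was repeat 4, of day 38, each time the highest: Mcm6 at 8.50 against 7.84 to 7.94 in the other repeats, Cdc45 at 6.42 against 5.37 to 5.54, Birc5 at 6.68 against 5.87 to 5.96 and Cenpa at 8.05 against 6.97 to 7.13. In Tomato+/Pecam1- tumor cells the array apart was the lowest: Mcm5 in repeat 1 at 6.41 against 6.73 to 6.76, Bub1b in repeat 1 at 6.90 against 7.32 to 7.36 and Prc1 in repeat 4 at 6.83 against 7.47 to 7.55. Because the mean over the 3 populations is equal for every repeat, a high value in 1 population comes with a low one in at least 1 other of that repeat.

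The Tomato contrast (marked minus unmarked cells) of 25 members differed between Pecam1- tumor cells and muscle by the interaction test, always higher in tumor. The differences were 0.74 for Mcm7, 0.88 for Gins2, 1.05 for Ccne1 and 1.75 for Rrm2 among replication genes. Kinases followed with 0.87 for Aurka, 1.17 for Plk1, 1.21 for Aurkb, 1.53 for Melk, 1.62 for Bub1, 1.86 for Bub1b and 1.86 for Cdk1, and cyclins with 1.32 for Ccnb2 and 2.23 for Ccna2. Spindle and cytokinesis genes had 1.23 for Kif20a, 1.51 for Nusap1, 1.86 for Prc1, 2.03 for Tpx2 and 2.59 for Kif11. Chromosome and kinetochore genes had 1.61 for Birc5, 1.80 for Cenpe, 2.09 for Mki67, 2.26 for Cenpf and 2.39 for Top2a, and the genes of cyclin destruction 1.36 for Cdc20 and 2.42 for Ube2c.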

How the results depend on the processing

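Over 8 comparisons and 38 members, 2288 of 2470 single-gene results kept their direction and side of the threshold when 1 array was left out. So did 289 of 304 with the replicate block (10 calls lost, each given in the report, and 5 gained), 289 with quantile normalization, 284 in fits of the compared groups alone, 304 with all probe sets averaged, 302 without the filter and with a 60th percentile filter, 301 with trended variance and 250 with centring swapped. Of these the sign turned past the threshold for Tk1 in Tomato+/Pecam1+ tumor against Tomato+ muscle cells, at 0.29 on deposited values (adjusted p = 0.0114), because the array medians differ.

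Counts of members called moved by over 1.5 times as follows, the cause not being tested. For Tomato+ against Tomato- muscle cells the 8 replication calls became 4 without muscle repeats 1 and 2 and 2 at a minimum of 2-fold. In the Pecam1- tumor contrast the 3 replication calls became 1 at an adjusted p of 0.01 and 0 at 2-fold, and the 0 mitosis calls 2 without tumor repeat 4. For Tomato+/Pecam1+ against Tomato+/Pecam1- tumor cells, 4 replication calls became 2 at 0.01 and 1 at 2-fold, and 13 mitosis calls 6 and 2. Against Tomato-/Pecam1- cells, 3 replication calls became 6 with quantile normalization, 7 in the fit of the compared groups, 10 without tumor repeat 4 and 1 at 2-fold, and 3 mitosis calls 9, 9 without repeat 4 and 1 at 2-fold. For Tomato+/Pecam1+ tumor against Tomato+ muscle cells, 3 replication calls became 5 on deposited values and 0 at 2-fold, and 3 mitosis calls 20, 1 at 0.01, 0 at 2-fold and 0 without muscle repeats 1 and 2. For Tomato-/Pecam1- tumor against Tomato- muscle cells, 3 replication calls became 5 with quantile normalization, 6 on deposited values, 6 without muscle repeats 1 and 2 and 1 at 2-fold, and 15 mitosis calls 8 on deposited values, 9 at 0.01 and 6 at 2-fold. For Tomato+/Pecam1- tumor against Tomato- muscle cells, 7 replication calls became 4, 3 and 1 and 11 mitosis calls 4, 5 and 3 on deposited values, at 0.01 and at 2-fold. The 4 replication calls of the interaction became 2 at 0.01 and 2 at 2-fold.

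Leaving out 1 array gave, for replication and mitosis calls in the same order of comparisons, 6 to 8 and 20 to 22, 1 to 2 and 0 to 0, 3 to 5 and 6 to 15, 2 to 9 and 3 to 8, 3 to 4 and 1 to 11, 2 to 6 and 9 to 15, 3 to 8 and 4 to 12, and 3 to 5 and 21 to 22.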
